A study of Mus musculus with 12 samples.

Results

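The Toll-like receptor genes Tlr1 to Tlr9 and the adaptor gene Myd88 were followed through 12 mouse liver transcriptomes. Every array probe whose deposited gene name, or whose current symbol through its RefSeq accession, was one of these 10 genes was taken, which gave 12 of the 41174 probes on the array (10 of 28781 gene names). Tlr3 and Tlr4 had 2 probes each and the other genes had 1. A probe entered the test where 4 or more arrays read it well above background, which held for 10 of the 12 probes and for 26593 probes in all. These 10 probes cover 9 genes. The Tlr8 probe and the second Tlr4 probe were not tested. No probe carried the name of Tlr11, Tlr12 or Tlr13, which were not analysed here.

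The study asked what the human glucocorticoid receptor beta (hGRB), a splice form with no known glucocorticoid binding, changes in the transcripts of a liver that lacks the mouse glucocorticoid receptor. All 12 samples were liver of male C57BL/6 mice, 3 months old, of genotype GR knockout, described as a knockout of the receptor in the liver. They fall into 3 groups of 4: PBS alone, an adeno-associated virus carrying the green fluorescent protein (AAV-GFP), and an adeno-associated virus carrying hGRB (AAV-hGRB). There was no group with an intact receptor, and the allele or Cre driver, the promoter of the vectors, their dose and the time after injection are not stated in the labels used here. The samples of a group are numbered, but whether each came from a separate animal is not stated, so p-values reflect only how these samples vary, which may be technical.

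Toll-like receptors recognise molecules of microbes and of damaged cells. Tlr1, Tlr2, Tlr4, Tlr5 and Tlr6 act at the cell surface on lipoproteins, lipopolysaccharide and flagellin, and Tlr3, Tlr7, Tlr8 and Tlr9 act in endosomes on nucleic acids. Nearly all of them pass the signal through Myd88, while Tlr3 uses the adaptor Ticam1 (TRIF) and Tlr4 uses both, and the pathway ends in NF-kappaB and interferon regulatory factors. In liver, Kupffer cells, the resident macrophages, carry many of these receptors, and hepatocytes, endothelial cells and other immune cells carry some of them. In whole liver, fewer cells of a type and less RNA per cell cannot be told apart.

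The level given below is the log2 spot intensity minus the 75th percentile of its array, so a level of 0 is that of the 75th percentile. Levels of different probes cannot be set against each other, because probes bind with different efficiency, and each gene is compared only with itself across arrays. The share of probes well above background ran from 54.9% to 66.3% over the arrays. The log2 75th percentile was 7.71 in AAV-GFP replicate 3, the dimmest array, and 9.22 in AAV-hGRB replicate 3, the brightest. All 6 hepatocyte marker genes were well above background on all 12 arrays. The gene of the deleted receptor, Nr3c1, was read by 4 probes, and its brightest lay between 0.05 and 0.58 on all arrays; every group carries the deletion and no probe is stated to lie in the deleted part, so this level checks no label.

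**Figure D1:**
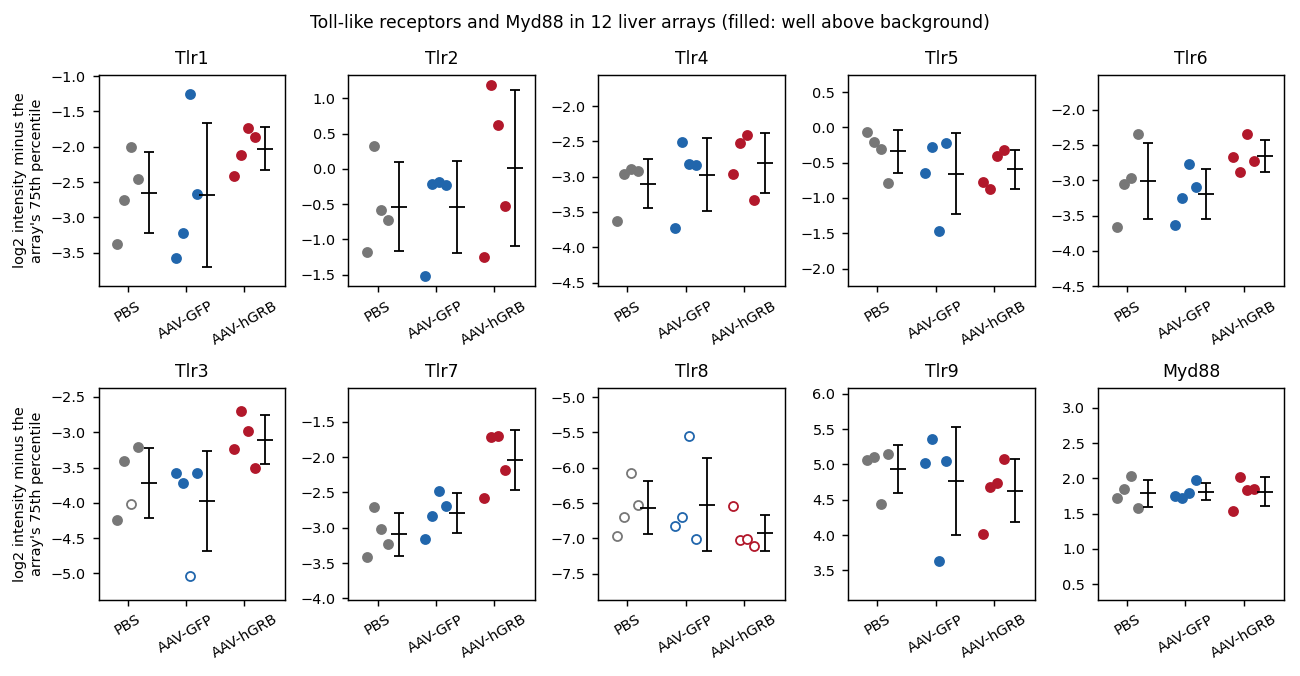
Level of each Toll-like receptor gene and of Myd88 on the 12 liver arrays, as log2 intensity minus the 75th percentile of the array (vertical axis, with its own range in each panel) in the PBS, AAV-GFP and AAV-hGRB groups. Each point is 1 array, filled where the probe was well above background and open where it was not, and the black bar is the mean with 1 SD (n = 4); the probe of higher mean signal is shown for Tlr3 and Tlr4. The 4 AAV-hGRB arrays of Tlr7 sit between -2.58 and -1.70, all above the PBS arrays, the Myd88 groups lie on top of each other, and all Tlr8 points are open.

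No Toll-like receptor or Myd88 probe passed the threshold of an adjusted p of 0.05 in any comparison. In AAV-hGRB against AAV-GFP, 0 of the 10 tested probes were called by limma, against 0% of all tested probes. Without adjustment, 2 of the 10 (Tlr7 and the first Tlr3 probe) had p under 0.05, against 3.35% of all tested probes. The differences of the genes were above 0 for 8 of 9, with a median of 0.54 on the log2 scale, whereas over all tested probes the median was -0.05 and 43.5% were above 0. Tlr9 was the gene below 0, and Myd88, at 0.00, turned negative with normexp correction or slide as a term.

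In AAV-hGRB against PBS, 0 of 10 probes were called, against 0% of all tested probes, and 1 of 10 (Tlr7) had an unadjusted p under 0.05, against 5.84%. Of the 9 genes, 7 had a difference above 0, with Tlr5 and Tlr9 below it, and the median was 0.35 against -0.06 over all tested probes. In AAV-GFP against PBS, where 0% of all tested probes were called, none of the 10 was called and none had an unadjusted p under 0.05, against 1.68% of all tested probes. There 4 genes were above 0 and 5 below, with a median of -0.03 against 0.00. Against both controls together, the AAV-hGRB arrays gave 0 of 10 calls, while 1 probe of another gene was called (0.00376% of all tested probes). There 2 of 10 (Tlr7 and the first Tlr3 probe) had an unadjusted p under 0.05, against 5.6% of all tested probes, and both were higher in AAV-hGRB, against 2.97%. The comparisons share samples: the first 2 share the AAV-hGRB arrays, so their like directions are not independent.

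**Figure D2:**
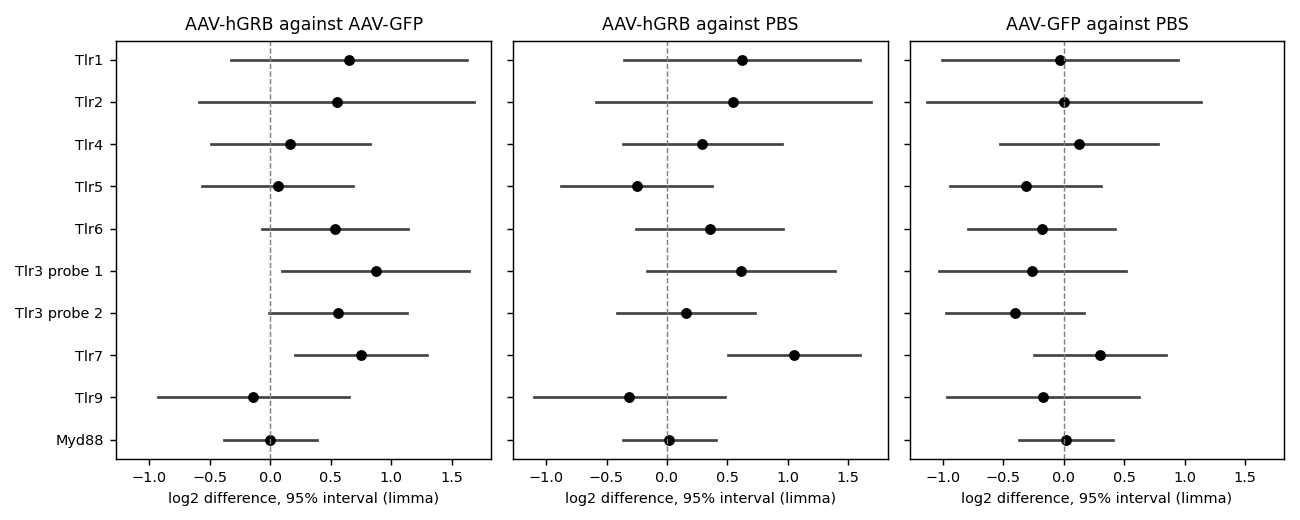
Log2 differences in level for the 10 tested probes (points) with their 95% intervals from limma (lines), in AAV-hGRB against AAV-GFP, AAV-hGRB against PBS and AAV-GFP against PBS, n = 4 arrays per group. The interval of Tlr7 lies above 0 in both AAV-hGRB comparisons (0.20 to 1.30 and 0.50 to 1.60), that of the first Tlr3 probe in the first comparison, and the Myd88 intervals are the narrowest and centred near 0; no adjusted p passed 0.05.

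Among the receptors at the cell surface, Tlr2, the shared partner of Tlr1 and Tlr6 in recognising lipoproteins, varied most from array to array. Its probe (chr3:83941473-83941532, minus strand, mm7) was printed on 10 spots and was well above background on all arrays. Its level was -1.25, 1.19, 0.62 and -0.52 in AAV-hGRB replicates 1 to 4. In AAV-GFP it was -1.52, -0.21, -0.19 and -0.23, and in PBS it was -1.18, 0.33, -0.58 and -0.73. The groups overlapped fully, with the lowest array in AAV-GFP and the highest in AAV-hGRB, 6.52-fold apart. The SD among the 10 spots of an array was 0.03 to 0.09, while the SD among arrays of a group was 0.82, so the arrays differed by far more than the spots did. AAV-hGRB was higher than AAV-GFP by 0.55 (SE 0.52) and than PBS by 0.55 (SE 0.52), neither larger than the spread between arrays, and AAV-GFP and PBS differed by 0.00 (SE 0.52). Without AAV-hGRB replicate 2 the first 2 values were 0.16 and 0.16, and without AAV-hGRB replicate 1 they were 0.97 and 0.97.

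Tlr1 (probe chr5:64279687-64279746, minus strand) pairs with Tlr2 on triacylated lipoproteins. Its level was -2.42, -2.12, -1.73 and -1.86 in AAV-hGRB. In AAV-GFP it was -3.57, -3.22, -1.25 and -2.67, and in PBS it was -3.38, -2.76, -2.01 and -2.45. The AAV-hGRB arrays lay close together within the wider range of AAV-GFP, whose replicate 3 was the highest of all 12 arrays. The difference from AAV-GFP was 0.65 (95% interval -0.33 to 1.63) and from PBS 0.62 (SE 0.45). Without AAV-GFP replicate 3 the first was 1.12, and without AAV-GFP replicate 1 it was 0.35.

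Tlr6 (probe chr5:64307937-64307996, minus strand) pairs with Tlr2 on diacylated lipoproteins. It was at -2.67, -2.88, -2.35 and -2.72 in AAV-hGRB. In AAV-GFP its level was -3.63, -3.25, -2.78 and -3.10, and in PBS it was -3.66, -3.06, -2.97 and -2.35. The AAV-hGRB arrays were higher than AAV-GFP except that replicate 2 of AAV-hGRB lay below replicate 3 of AAV-GFP, and they overlapped with PBS through its replicate 4. The difference from AAV-GFP was 0.54 (95% interval -0.07 to 1.14) with an unadjusted p of 0.0785 in limma and an adjusted p of 0.998.

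Tlr4, the lipopolysaccharide receptor, was read by a probe on 10 spots (chr4:66276388-66276447, plus strand) that was well above background on all arrays. Its level lay between -3.33 and -2.41 in AAV-hGRB, between -3.72 and -2.51 in AAV-GFP and between -3.62 and -2.89 in PBS. The ranges of the 3 groups overlapped, and AAV-hGRB differed from AAV-GFP by 0.17 and from PBS by 0.29 (SE 0.30 for each). The second probe named Tlr4 (chr4:66363220-66363279) was not well above background on any array, so it gives no level to compare.

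Tlr5, the flagellin receptor, was read by a probe (chr1:182962847-182962906, plus strand) that carries the name of the array design and a predicted transcript. Its level was between -0.87 and -0.31 in AAV-hGRB, between -1.47 and -0.22 in AAV-GFP and between -0.79 and -0.07 in PBS. The lowest value was that of AAV-GFP replicate 3, the dimmest array, and the Pearson correlation of the probe with the log2 75th percentile over the 12 arrays was 0.70, whose part in the values was not tested. The groups overlapped, and the differences were 0.06 against AAV-GFP and -0.25 against PBS (SE 0.29 for each).

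Among the endosomal receptors, Tlr7, a sensor of single-stranded RNA, had the lowest unadjusted p of the tested members in each comparison with AAV-hGRB. Its probe (chrX:162079619-162079678, minus strand) was well above background on all 12 arrays. Its level was -2.58, -1.72, -1.70 and -2.18 in AAV-hGRB. In AAV-GFP it was -3.15, -2.84, -2.49 and -2.69, and in PBS it was -3.41, -2.70, -3.02 and -3.23. All 4 AAV-hGRB arrays were above all PBS arrays, and 3 of the 4 were above all AAV-GFP arrays, while AAV-hGRB replicate 1 fell just below AAV-GFP replicate 3.

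Tlr7 averaged -2.04 ± 0.42 over the AAV-hGRB arrays, -2.79 ± 0.28 over those of AAV-GFP and -3.09 ± 0.30 over those of PBS (SD, n = 4). AAV-hGRB exceeded PBS by 1.05 (95% interval 0.50 to 1.60), which is 2.07-fold, with an unadjusted p of 0.00127 and an adjusted p of 0.477 in limma. It exceeded AAV-GFP by 0.75 (0.20 to 1.30), or 1.68-fold, with an unadjusted p of 0.0113 and an adjusted p of 0.998. Neither passed the threshold over all tested probes, and normexp background correction reduced them to 0.62 and 0.46. A separation with no overlap and AAV-hGRB higher was seen for 1 of the 10 probes against PBS (Tlr7), where 2.14% of all tested probes showed it. Against AAV-GFP it was seen for 1 of 10 (the first Tlr3 probe), where 1.05% did.

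AAV-GFP differed from PBS by 0.30 in Tlr7 (95% interval -0.25 to 0.84). The arrays lay on 6 slides, of which slides 5 and 6 held 1 array of each group. Slide 3 held only AAV-hGRB replicates 2 and 4, so for these arrays group and slide cannot be told apart. Within slides 5 and 6 the Tlr7 difference of AAV-hGRB from AAV-GFP was 0.26 and 0.79, and that from PBS was 0.65 and 1.32. With slide as a term of the fit, the differences were 0.68 and 0.83, with adjusted p of 0.951 and 0.999 in limma. The direction was the same within both slides, and the size on slide 5 was smaller than the pooled value. Slide 6 set the brightest array, AAV-hGRB replicate 3 (log2 75th percentile 9.22), against dim ones. These were AAV-GFP replicate 3 (7.71) and PBS replicate 3 (8.45), and the part of brightness in the slide 6 values was not tested. In AAV-GFP against PBS, the Tlr7 difference was -0.45, 0.39 and 0.54 within slides 1, 5 and 6.

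Most of the other members did not keep their sign between these slides, each of which compares 1 array with 1 array. Against AAV-GFP, the differences within slides 5 and 6 were 0.80 and -0.47 for Tlr1, -1.04 and 0.81 for Tlr2, -0.45 and 0.41 for Tlr4, and -0.50 and 1.07 for Tlr5. They were -1.34 and 1.10 for Tlr9 and -0.18 and 0.04 for Myd88, whereas Tlr6 was above 0 on both, at 0.59 and 0.43. Against PBS, opposite signs were found for Tlr2 (-0.52 and 1.21), the first Tlr3 probe (-0.04 and 1.04) and Tlr4 (-0.04 and 0.48). The same held for Tlr5 (0.0051 and -0.10), Tlr6 (-0.32 and 0.62) and Tlr9 (-1.14 and 0.30). Myd88 was at -0.04 and -0.20, both below 0, and Tlr1 at 0.04 and 0.28, both above it. The second Tlr3 probe was above 0 on both slides, at 0.60 and 1.18 against AAV-GFP and at 0.21 and 0.72 against PBS. Its slide 6 values use control arrays on which it was not well above background.

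Tlr3, the receptor for double-stranded RNA that signals without Myd88, was read by 2 probes (chr8:44181930-44181989 and chr8:44182210-44182269, minus strand). Both were well above background on 10 of the 12 arrays, the exceptions being replicate 3 of AAV-GFP and replicate 3 of PBS. The first probe read -3.24, -2.70, -2.98 and -3.51 in AAV-hGRB. In AAV-GFP it read -3.58, -3.72, -5.04 and -3.57, and in PBS -4.24, -3.41, -4.02 and -3.20. The AAV-hGRB arrays were all above the AAV-GFP arrays, the nearest pair lying at -3.51 and -3.57, and they overlapped with PBS.

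The first Tlr3 probe differed by 0.87 between AAV-hGRB and AAV-GFP (95% interval 0.09 to 1.65), 1.83-fold, with an unadjusted p of 0.0308 and an adjusted p of 0.998 in limma, and this value includes AAV-GFP replicate 3, which was not well above background. Without that array the difference was 0.52. With normexp background correction in place of the deposited one the difference was 0.35. Within slides 5 and 6 it was 0.48 and 2.06, and the difference from PBS was -0.04 and 1.04. The slide 6 values, 2.06 and 1.04, both use control arrays on which the probe was not well above background. The second probe gave 0.56 with an unadjusted p of 0.0529 and overlapping groups, and against PBS the probes gave 0.61 and 0.16. The level of the first probe moved with the 75th percentile of the array (Pearson r 0.68 over 12 arrays), whose part in the difference was not tested.

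Tlr8, the neighbour and close relative of Tlr7 on the X chromosome, was not well above background on any of the 12 arrays. Its probe (chrX:162017145-162017204) gives no fold, and the data say nothing on whether it differed between groups.

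Myd88, the adaptor shared by nearly all of these receptors and by the interleukin-1 receptor family, was the steadiest of the genes. Its probe (chr9:119016408-119016467, minus strand) was printed on 10 spots, with an SD among spots of 0.03 to 0.09. Its level was 1.54, 2.03, 1.83 and 1.85 in AAV-hGRB. In AAV-GFP it was 1.74, 1.72, 1.80 and 1.98, and in PBS 1.72, 1.84, 2.03 and 1.58. The groups overlapped fully, with means of 1.81 ± 0.20, 1.81 ± 0.12 and 1.79 ± 0.19 (SD, n = 4). The difference of AAV-hGRB from AAV-GFP was 0.00 with a 95% interval of -0.39 to 0.39, so the interval of the ratio ran from 0.765 to 1.31. AAV-GFP differed from PBS by 0.02 and AAV-hGRB from PBS by 0.02. With slide as a term of the fit, the difference from PBS was -0.13 and that from AAV-GFP -0.06.

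Myd88 and Tlr7 can be read beside a list of 17 interferon-induced genes, which was chosen with earlier results of these data known and is given only for comparison. The mean level of the list was 1.44, 2.86, 2.67 and 1.49 in AAV-hGRB, between 0.14 and 0.73 in AAV-GFP and between -0.03 and 0.67 in PBS. All 17 genes had a difference above 0 in AAV-hGRB against AAV-GFP, with a median of 1.92, although none passed the adjusted threshold, and 14 of them were higher with no overlap, which 1.05% of all tested probes were. Usp18, which removes ISG15 from proteins, had the lowest unadjusted p of the list and differed by 2.23. Within AAV-hGRB, replicates 2 and 3 had the highest list means and also the highest levels of Tlr7, Tlr2, Tlr4 and the first Tlr3 probe. The second Tlr3 probe was highest there in replicates 2 and 1, at -3.09 and -3.340, with replicate 3 at -3.349. Tlr1 was highest there in replicates 3 and 4, Tlr6 in replicates 3 and 1, and Tlr5 and Tlr9 in replicates 4 and 3. Myd88 was highest there in replicate 2, at 2.03, a level that PBS replicate 3 matched.

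**Figure D3:**
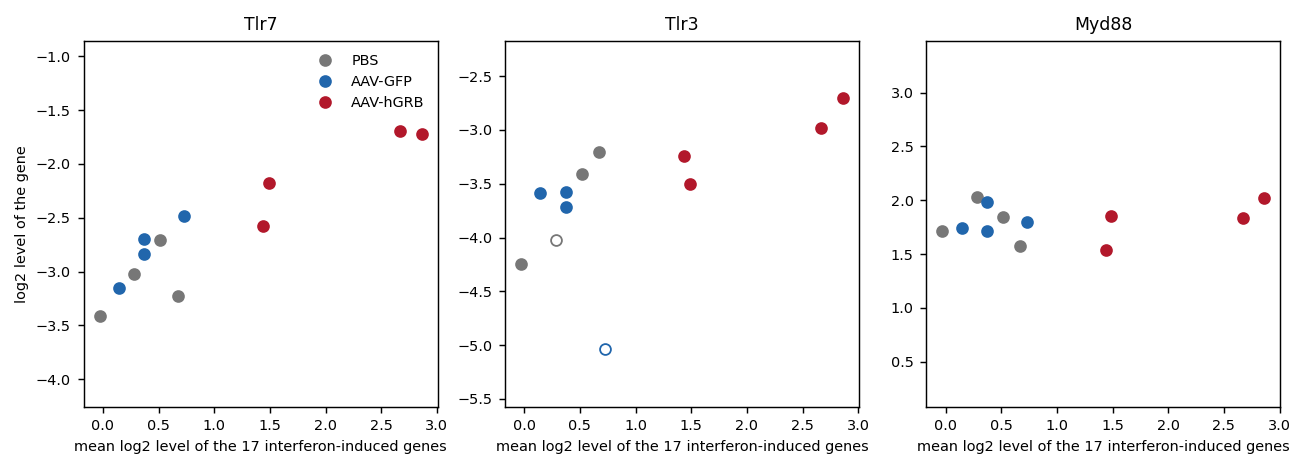
Level of Tlr7, Tlr3 (first probe) and Myd88 on each of the 12 arrays (vertical axes, log2 intensity minus the 75th percentile, all spanning the same range) against the mean level of 17 interferon-induced genes on that array (horizontal axes, same unit); colours mark the groups, and open points are arrays where the probe was not well above background. The AAV-hGRB arrays lie to the right, at 1.44 to 2.86, where Tlr7 is at -2.58 to -1.70, while Myd88 stays between 1.54 and 2.03 on all arrays.

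Markers of Kupffer cells and macrophages differed in the same direction as most of the receptors in both AAV-hGRB comparisons, but not in AAV-GFP against PBS. All 12 of these markers were well above background on all arrays, and all 12 had a difference above 0 in AAV-hGRB against AAV-GFP (median 0.33) and against PBS (median 0.58), with none called. In AAV-GFP against PBS, 11 of 12 markers were above 0 (median 0.17), where 4 of the 9 member genes were. The mean level of the markers ranged from 2.01 to 3.06 in AAV-hGRB, from 1.92 to 2.59 in AAV-GFP and from 1.12 to 2.38 in PBS. The AAV-hGRB arrays with the highest marker means were again replicates 2 and 3, at 2.85 and 3.06. The lowest of all was PBS replicate 1, which also had the lowest Tlr7 and Tlr6 levels of the 12 arrays. The part of these markers in the receptor values was not tested.

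Among markers of dendritic cells, Siglech, which marks plasmacytoid dendritic cells, and Cd209a were not well above background on any array, and the mean level of the list was -2.79 to -2.63 in AAV-hGRB and -3.15 to -2.07 in AAV-GFP. The mean level of 5 B cell markers was -2.46 to -2.12 in AAV-hGRB, -3.08 to -2.11 in AAV-GFP and -2.88 to -2.02 in PBS. Of these B cell markers, 3 of 5 were above 0 in AAV-hGRB against AAV-GFP, with a median of 0.33. Of the tested dendritic cell markers, 1 of 4 was above 0 there, with a median of -0.14. Of 6 neutrophil markers, 3 were tested, with a median difference of 0.86 in AAV-hGRB against AAV-GFP and -1.26 in AAV-GFP against PBS. Their mean level was -1.14 to -0.60 in AAV-hGRB, -1.98 to -0.82 in AAV-GFP and -0.42 to 0.04 in PBS, so both vector groups lay below PBS with no overlap. Only 2 of these markers were well above background on all arrays. Among single tested probes, 2.45% were lower with no overlap in AAV-hGRB against PBS and 0.357% in AAV-GFP against PBS. In AAV-hGRB against AAV-GFP, 4 of 6 tested markers of T and NK cells were above 0 (median 0.27), 3 of 5 of endothelium (0.11), 2 of 4 of stellate cells (-0.0099) and 1 of 6 of hepatocytes (-0.14). No marker of any list was called, and their part in the receptor values was likewise not tested.

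The probe for Tlr9, the receptor for unmethylated CpG DNA, is described last because of the probes it follows. It lies at chr9:105956096-105956155 (plus strand) and was well above background on all arrays. The AAV-hGRB arrays read 4.01, 4.68, 4.73 and 5.08. Those of AAV-GFP read 5.02, 5.36, 3.64 and 5.06, and those of PBS 5.06, 5.11, 4.43 and 5.15. The groups overlapped, with the lowest value on the dimmest array, and the differences were -0.14 against AAV-GFP and -0.31 against PBS (SE 0.36 for each). Over the 12 arrays the level correlated with the log2 75th percentile (Pearson r 0.85). The genes whose probes were most like it over the 12 arrays, among 14101 genes compared, were Intu, Ccin and Slc4a9, with Pearson r of 0.997, 0.990 and 0.988. These correlations describe arrays that share scanner brightness and labelling.

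A stretch of 6 letters is shared by the Tlr9 probe and the probes that follow it most closely, a pattern searched for after the values were seen. The windows below are 30 bases of each probe, 5′ to 3′ as deposited, with the shared GCCTGC in capitals. The Slc4a9 probe also holds these letters and is not shown. They come from chr9:105956096-105956155 (Tlr9), chr3:40445593-40446211 (Intu), chr4:43999117-43999176 (Ccin), chr6:90051435-90051494 (Vmn1r46) and chr14:62557918-62557977 (Cdca2, minus strand), all on mm7. The last 2 probes had Pearson r of 0.988 and 0.986 with that of Tlr9.
Tlr9: ccgagttgctctGCCTGCcttgctctgtct
Intu: tgctgttaattgGCCTGCctgctgaagaag
Ccin: tggactgtcctGCCTGCtgtctagccaagc
Vmn1r46: ctGCCTGCtgaatgtcctttggaccatcac
Cdca2: GCCTGCctgatctgacacctaatagaatac

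These letters, searched on the probe strand, occur in 356 of the 41174 probes (0.865%). They occur in 1.15% of the tested probes but in 12 of the 20 tested probes most correlated with Tlr9, and in 9 of the first 10. Of the 356 probes, 86.0% were tested, against 64.6% of all probes, and their median level was -1.02 against -3.27. The longer form GCCTGCCT, which contains the shorter one and is read in the windows of Tlr9, Intu and Cdca2, occurs in 37 probes, all of which were tested, with a median level of 1.07. The other 36 had a median Pearson r of 0.846 with the Tlr9 probe, where the median over all tested probes was -0.12. For the 305 other tested probes that hold the 6 letters, which include these 36, the median r was only 0.11. Holding the 6 letters thus did not in general go with a high r. Of the 12 Toll-like receptor and Myd88 probes, only that of Tlr9 holds either form.

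**Figure D4:**
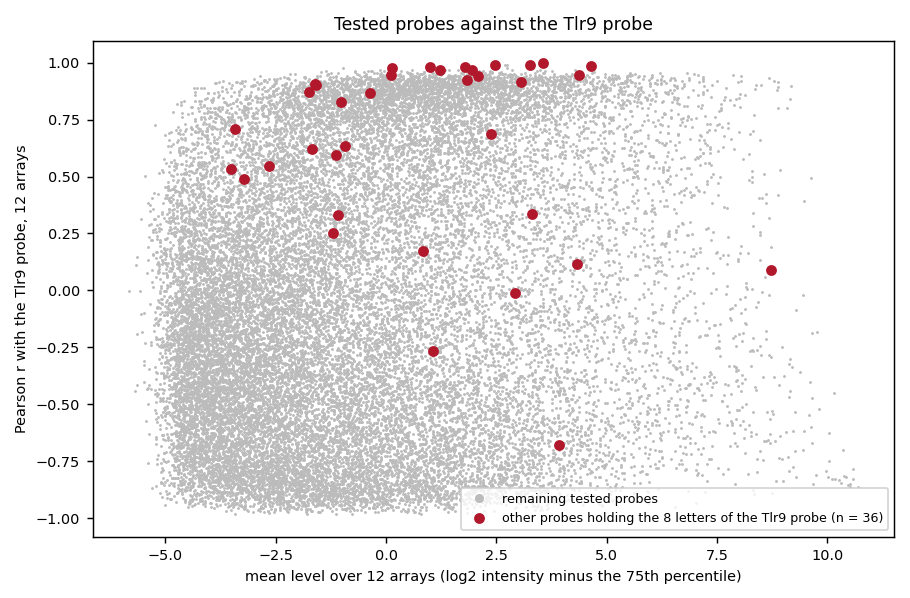
Each tested probe by its mean level over the 12 arrays (horizontal axis, log2 intensity minus the 75th percentile) and its Pearson correlation with the Tlr9 probe over those arrays (vertical axis); grey points are the remaining tested probes and red points the 36 other probes that hold the 8 letters of the Tlr9 probe. Most red points lie at high correlation, with a median of 0.846, but single ones lie near or below 0.

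Other probes of the same genes can be read beside them, as probe signals and not as transcript levels. The Intu probe with the letters had a mean level of 3.56, whereas the 2 Intu probes without them were at -2.78 and -2.97 and had r of 0.70 and 0.53 with Tlr9. The Cdca2 probe with the letters was at 4.65, and those without were at -3.15 and, not well above background on any array, at -5.84, with r of -0.68 and -0.69. Tlr9 itself has no second probe. Probes of Alas1 and Twf2, which lie beside Tlr9 on the chromosome, had r between -0.14 and 0.10 with it. What the Tlr9 probe measured on these arrays was not tested further, so its level is given as that of the probe.

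The genes whose probes followed the other members most closely were named by the same rule. Arrays share labelling and scanner brightness, and the 12 arrays of all 3 groups entered each r together, so differences between groups enter it too. These genes are the 3 of highest Pearson r among 14101 genes. For Tlr7 they were Siglec1, a macrophage lectin, H2-T24, a class I-like histocompatibility gene, and Oas1f, of the oligoadenylate synthetase family, with r of 0.955, 0.951 and 0.948. For Tlr1 they were Irf8, Snx20 and Rab7b (0.952, 0.950 and 0.950), and for Tlr6 they were Inpp5d, Rnase6 and Blnk (0.930, 0.914 and 0.892). Irf8 is a transcription factor of the myeloid lineage, Inpp5d a phosphatase of blood cells and Blnk an adaptor of B cells and macrophages.

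For Tlr2 the 3 genes were Relb, Clec4a2 and Klra2 (0.876, 0.861 and 0.830), of which Relb is an NF-kappaB subunit. For Tlr4 they were H2-M3, Xlr and Dusp10 (0.865, 0.864 and 0.862). For Tlr5 they were Unc119, Lrrc59 and Edc3 (0.945, 0.935 and 0.935). For Myd88 the highest values were lower, with Tmed8, Alkbh4 and Gnai1 at 0.810, 0.802 and 0.801. Between members, the highest r were 0.77 for Tlr2 with Tlr4, 0.77 for Tlr2 with Tlr7 and 0.76 for Tlr1 with Tlr6, and the lowest was -0.64 for Tlr1 with Tlr9.

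The promoters of 8 of the 10 genes were in the RefSeq table (GRCm38.p6), with 10 entries. Tlr4 and Tlr7 had no entry. On both strands of the 250 bases before each start site, 3 motifs were searched: GAAA, any 2 bases and GAAA, a form of the interferon-stimulated response element, TTC, any 3 bases and GAA, the gamma-activated site bound by STAT factors, and GGGA, any 2 bases and TTCC, a form of the kappaB site. They occur in 2.98%, 7.02% and 1.21% of the 32851 promoters in the table. Myd88 and Tlr6 hold the first. Their promoters are shown beside the interferon-induced comparison list, as the members that hold this element, with differences from AAV-GFP of 0.00 and 0.54; capitals mark the matches, and a match is a description of letters only. In Myd88 the response element begins 40 bases before the start and overlaps the gamma-activated match, and in one of the Tlr6 entries 2 overlapping matches on the opposite strand lie around 116 bases before it.
Myd88, chr9:119340019-119340268, minus strand: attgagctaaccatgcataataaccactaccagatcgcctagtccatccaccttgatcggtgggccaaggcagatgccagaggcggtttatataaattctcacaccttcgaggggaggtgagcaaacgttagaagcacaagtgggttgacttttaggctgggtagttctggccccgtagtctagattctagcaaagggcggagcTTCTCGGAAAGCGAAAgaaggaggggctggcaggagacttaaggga
Tlr6, chr5:64959167-64959416, minus strand: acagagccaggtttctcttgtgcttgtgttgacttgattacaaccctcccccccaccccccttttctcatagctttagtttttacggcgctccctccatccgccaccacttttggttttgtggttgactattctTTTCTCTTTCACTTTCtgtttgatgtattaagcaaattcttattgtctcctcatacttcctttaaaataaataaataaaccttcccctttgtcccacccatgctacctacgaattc

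Tlr1 and Tlr8 hold a gamma-activated match and Tlr3 a kappaB match 211 bases before its start. The entries of Tlr2, Tlr5 and Tlr9 hold none of the 3 motifs, which says only that these letters are not in this window.

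The rest of the pathway was read from 8 lists of 61 genes, of which 53 had a tested probe. None was called in any comparison, and their median difference was 0.05 in AAV-hGRB against AAV-GFP, 0.07 against PBS and -0.02 between AAV-GFP and PBS. The lists were chosen with earlier results of these data known, and from each list the 2 genes of lowest unadjusted p in AAV-hGRB against AAV-GFP are named. Other genes are added for their place in the pathway and were chosen after their values were seen.

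Among 6 coreceptors and ligand-handling genes, 4 had a difference above 0 in AAV-hGRB against AAV-GFP. Ly86, which encodes MD-1, the partner of the Toll-like homologue Cd180, averaged 2.14 ± 0.62 with AAV-hGRB, 1.52 ± 0.37 with AAV-GFP and 0.98 ± 0.79 with PBS (SD, n = 4). Its difference from PBS was 1.17 (SE 0.40), with an adjusted p of 0.815 in limma. Cd180 differed by 0.94 from AAV-GFP (SE 0.65) and passed the background flag on 5 arrays of 12. Ly96, which encodes MD-2, the lipopolysaccharide-binding partner of Tlr4, differed by -0.10 from AAV-GFP and by 0.28 from PBS. Of the 8 genes of folding and trafficking, 4 were above 0 and 4 below. Ctsb, a protease that can cleave the endosomal receptors, differed by -0.16 from AAV-GFP (SE 0.21), and Cnpy3, a partner of the chaperone Hsp90b1, by -0.26 (SE 0.34). Unc93b1, which carries the endosomal receptors to their compartment, differed by 0.00 from AAV-GFP and by 0.30 from PBS, and Hsp90b1, the chaperone of the receptors, by -0.01 and 0.07.

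Of the 5 other adaptors, 3 were tested. Pik3ap1, which links the receptors to phosphoinositide 3-kinase, differed by 0.28 from AAV-GFP (SE 0.32). Ticam1, which serves Tlr3 and Tlr4, was at -0.14 ± 0.05 in AAV-hGRB and -0.11 ± 0.10 in AAV-GFP, against 0.26 ± 0.23 in PBS (SD, n = 4). It was lower than PBS with no overlap in AAV-hGRB, by -0.39 (adjusted p 0.842 in limma), where 2.45% of all tested probes were lower with no overlap. Tirap, which brings Myd88 to Tlr2 and Tlr4, differed by 0.02 from AAV-GFP, and Ticam2 was not well above background on any array. Among 16 kinases and ligases after the adaptor, 11 were above 0 against AAV-GFP. Chuk, which encodes the kinase IKK alpha, differed by -0.34 from AAV-GFP (adjusted p 0.998), with every AAV-hGRB array below every AAV-GFP array, where 1.94% of all tested probes were lower with no overlap, and differed from PBS by 0.02. Ikbke, an IKK-related kinase, differed by 0.34 from AAV-GFP (SE 0.28).

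Of the 5 transcription factors, Irf7, the factor through which Myd88 signalling reaches interferon genes and itself interferon-induced, had the largest difference. It averaged 2.49 ± 1.08 with AAV-hGRB, 0.00 ± 0.31 with AAV-GFP and 0.08 ± 0.26 with PBS (SD, n = 4). The difference from AAV-GFP was 2.49 (SE 0.43), with no overlap and an adjusted p of 0.310 in limma. In this comparison 1.05% of all tested probes were higher with no overlap. Irf7 is also one of the 17 interferon-induced genes above, so this is not a separate observation. Irf3, which acts after Ticam1, differed by -0.40 and Irf5 by -0.15, while the NF-kappaB subunits Nfkb1 and Rela differed by 0.23 each, all with overlapping groups. Of 9 tested inhibitors, 5 were above 0, among them Irak3 at 0.67, a gene well above background on 7 of the 12 arrays. Tollip, another inhibitor, differed by -0.26 (SE 0.18).

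Among the induced cytokines, 6 of 8 were tested. Cxcl10, a chemokine induced by interferon, exceeded AAV-GFP by 1.47 in AAV-hGRB (SE 0.40) with no overlap, which 1.05% of all tested probes showed. Ccl5 exceeded it by 1.15 (SE 0.44) with overlap, and both genes had an adjusted p of 0.998 in limma. Tnf, Il6 and Il1b, classical products of NF-kappaB signalling, differed by 0.34, 0.48 and -0.10, each within its SE of 0.43 to 0.47 or little above it. Il12b was not well above background on any array, Ifnb1 was so on 2 of 12 and Tnf on 7 of 12.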

How the data were processed

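Total RNA of the 12 liver samples (Qiagen RNeasy with DNase, 500 ng labelled with Cy3, per the labels' protocols) was hybridised to 1-colour Agilent arrays. The deposited values are linear spot intensity, extracted with Agilent Feature Extraction 9.5.3.1 per the file headers (9.5 per the submitters' processing notes). The processed signal, already corrected for background, was used. Its 540216 values in the deposited series matrix are equal within a relative 1e-06, so that table was not a further alternative.

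Control spots (1639 of each array) were left out, log2 values of the spots of a probe were averaged, and the array's 75th percentile was subtracted. Probes well above background on at least 4 arrays were tested. Current symbols were found through the RefSeq accession for 22951 probes, through another accession of the file for 131, and the other 18092 carry the symbol that the array design gives. Probe coordinates are those of the deposited files on mm7; exon and UTR annotation was not used here. The promoter table is on GRCm38.p6. A gene with several probes is represented by the brightest on average.

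All arrays entered one limma fit (limma 3.58.1, R 4.3.3) with 3 groups and 9 residual degrees of freedom, with two-sided tests, Benjamini-Hochberg adjustment over all 26593 tested probes and a threshold of 0.05. The fit was tested on simulated data. With 4 arrays per group, their number limits the precision, and the median SE of a difference was 0.31. The members and lists were chosen with earlier results of these data known. Named are all members with all their probes and, for each member well above background on all arrays, the 3 genes of highest Pearson r; the letters shared with the Tlr9 probe were searched after the data were seen. Alternatives were normexp background correction with an offset of 50, median and quantile scaling, 2 other filters, the mean over probes, replicate and slide blocks, array weights and leaving out each array.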

Additional observations from a re-analysis of the deposited data

Results flagged for a closer look

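In 30 groups of 4 arrays checked for an array apart from the other 3, 4 were found, and chance gives about 1 in 20. Tlr2 in AAV-GFP replicate 1 was at -1.52, while the nearest of the others was at -0.23. The first Tlr3 probe in AAV-GFP replicate 3 was at -5.04, the nearest being -3.72, and the probe was not well above background there. Tlr4 in PBS replicate 1 was at -3.62, the nearest being -2.96. Tlr9 in PBS replicate 3 was at 4.43, the nearest being 5.06.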

How the results depend on the processing

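Under all alternatives run, 0 Toll-like receptor or Myd88 probes passed the threshold, and Tlr7 remained higher in AAV-hGRB than in either control. The lowest adjusted p of any member was 0.0715, for Tlr7 against both controls with array weights; the other alternatives for that value reached 0.99994 (without AAV-hGRB replicate 2). Normexp reduced its difference from PBS to 0.62. Over all tested probes, array weights gave 67 calls in AAV-hGRB against PBS and 88 against both controls, where the equal-weight fit gave 0 and 1. Against both controls there were 2 calls with normexp, 0 with median scaling, quantile scaling, either other filter, the replicate block or slide as a block, and 0 to 4 when an array was left out.

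Of 787 alternative values of the members, 87 changed sign. Of these, 23 are among the 63 differences within a slide (those of AAV-hGRB stand in the report), and 64 are among the rest. Of the 716 values with a p, 0 were past the threshold, and 71 values, within slides or over several probes, have no test. The Tlr4 mean over both probes includes the probe that was not well above background on any array. In AAV-GFP against PBS, values that changed sign were Tlr2 at -0.37 and Tlr9 at 0.049 with array weights, Tlr4 at -0.047 over both probes, Tlr1 at 0.022 with median scaling, Myd88 at -0.0082, Tlr1 at 0.039 and Tlr3 at 0.018 with normexp, Myd88 at -0.00035 and Tlr1 at 0.092 with quantile scaling, and Myd88 at -0.063, Tlr2 at -0.31 and Tlr4 at -0.094 with slide as a block. In AAV-hGRB against AAV-GFP they were Tlr5 at -0.26 with array weights, Tlr4 at -0.10 over both probes, Myd88 at -0.067 with normexp and -0.064 with slide, and Tlr9 at 0.016 with quantile scaling. In AAV-hGRB against PBS they were Tlr4 at -0.15 over both probes, Myd88 at -0.075 with normexp and -0.13 with slide, and Tlr2 at -0.041 with slide. Against both controls they were Tlr4 at -0.13 over both probes, Myd88 at -0.071 with normexp and -0.096 with slide, and Tlr5 at 0.12 with slide. The cause was not tested. Tlr3 has no value under the filter that asks for all 12 arrays.

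With an array left out, AAV-GFP against PBS ranged from -0.052 to 0.099 for Myd88, -0.50 to 0.27 for Tlr1, -0.21 to 0.33 for Tlr2, -0.43 to 0.094 for Tlr3, -0.047 to 0.38 for Tlr4, -0.40 to 0.039 for Tlr6 and -0.37 to 0.21 for Tlr9. AAV-hGRB against AAV-GFP ranged from -0.071 to 0.092 for Myd88, -0.084 to 0.34 for Tlr4, -0.21 to 0.21 for Tlr5 and -0.52 to 0.064 for Tlr9. Myd88 ranged from -0.051 to 0.11 against PBS and from -0.061 to 0.10 against both controls. Tlr7 ranged from 0.63 to 0.93 against AAV-GFP and from 0.93 to 1.23 against PBS.

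Replicate numbers are shared between groups, but of 12 same-number pairs of arrays only 5 had a correlation of deviations over 0.1 (range -0.43 to 0.59), so they were not taken as pairs. The replicate block left 0 calls in every comparison.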
